A study of Homo sapiens with 18 samples.

Results

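Genes for the nuclear-encoded subunits of the mitochondrial respiratory chain and ATP synthase were examined in RNA sequencing of triple-negative breast cancer cell lines carrying shRNAs against PBRM1, IRF1 or MUC1. They were taken by symbol: NDUFA, NDUFB, NDUFC, NDUFS or NDUFV with a number, the SDH genes, UQCR genes, COX4 to COX8 genes and ATP5 genes. The 3 expression tables, which list 25721 genes in all, held 91 matching symbols, and 87 remained after 3 antisense genes and 1 pseudogene were removed. They comprised 37 genes of complex I, 4 of complex II, 9 of complex III, 19 of complex IV and 18 of complex V. The symbol rule uses no expression value, but it was set with earlier results of these data known.

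The study examined how the MUC1-C oncoprotein, the chromatin remodeling subunit PBRM1 and the transcription factor IRF1 act on gene expression. The 18 libraries formed 6 groups of 3. In BT-549 cells, PBRM1shRNA cells were set against their control cells, and IRF1shRNA cells against a separate set of control cells. Both BT-549 comparisons rest on stably expressed shRNAs in 1 line under puromycin selection. MDA-MB-436 cells, which carry a BRCA1 mutation, held a doxycycline-inducible MUC1 shRNA (MDA-MB-436/tet-MUC1shRNA) and received 500 ng/ml doxycycline (DOX) or DMSO vehicle, for a time that the labels do not state. A doxycycline-treated line without the MUC1 shRNA was not analysed here, so MUC1 silencing and exposure to the drug cannot be told apart. The 3 experiments share no libraries, and the replicates of each are parallel cultures of 1 line, so the p-values measure the spread between cultures. The labels do not tie the 3 PBRM1 control libraries to single samples, and these are called controls a, b and c.

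Each targeted transcript was lower in its own experiment. PBRM1 was at 12.3, 10.7 and 12.6 TPM (a length-corrected share of each library) in controls and at 3.22, 2.69 and 2.95 TPM in PBRM1shRNA libraries. IRF1 was at 5.22, 4.49 and 4.54 TPM in controls and at 1.03, 1.30 and 1.18 TPM in IRF1shRNA libraries. MUC1 was at 6.37, 4.97 and 5.55 TPM with vehicle and at 3.65, 2.71 and 2.73 TPM with DOX. Targets also moved in other experiments. With PBRM1 silencing mean IRF1 went from 24.4 to 7.46 TPM and mean MUC1 from 27.5 to 18.5 TPM. With DOX mean PBRM1 went from 23.4 to 15.1 TPM. The groups did not overlap for any of these. They overlapped for IRF1 in the DOX comparison and for PBRM1 and MUC1 with IRF1 silencing. Short noncoding RNAs took 75.5 to 79.2% of the TPM of PBRM1 libraries, 84.8 to 88.5% of that of IRF1 libraries and 12.04 to 15.2% of that of MUC1 libraries, and because TPM is a share, this class moves every other value. Results are therefore also given under 2 other scalings: TPM recomputed after these RNAs were removed (rescaled TPM), and a median-ratio scaling in which the typical gene sets the size of a library. The read depth of each library cannot be read from TPM.

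Complexes I to IV of the inner mitochondrial membrane pass electrons from NADH and succinate to oxygen. Complexes I, III and IV pump protons across this membrane as they do so. Complex V, the ATP synthase, uses the returning protons to make ATP. Complex I oxidises NADH through core flavin and iron-sulphur subunits surrounded by many accessory subunits, and complex II is succinate dehydrogenase. Complex III passes electrons to cytochrome c and complex IV, cytochrome c oxidase, passes them to oxygen. Some core subunits are made from mitochondrial DNA. Those genes are not analysed here.

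Most of these genes were abundantly expressed in both lines. Of 87 genes, 78, 75 and 78 passed the expression filter (at least 1 TPM in at least 3 of the 6 libraries) in the PBRM1, IRF1 and MUC1 experiments. Measured as rescaled TPM, a scale corrected for transcript length, all 87 genes together took 1.98% of the total in PBRM1 controls, 2.70% in IRF1 controls and 2.02% in vehicle-treated MDA-MB-436 cells. The highest level in complex I was that of NDUFS5, an accessory subunit, in all 3 experiments. UQCRH, the hinge protein of complex III, was likewise the highest of its complex in each. Complex IV was led by COX7C in BT-549. In vehicle-treated MDA-MB-436 cells COX8A (1335 rescaled TPM) and COX7C (1332 rescaled TPM) were close to level. Both are small structural subunits. Complex V was led by ATP5I in BT-549 and by ATP5B, the catalytic beta subunit, in MDA-MB-436.

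The 150 bases before the RefSeq start sites of COX7C and NDUFA2, the genes called higher in all 3 experiments on deposited TPM (values follow), are shown 5′ to 3′ on the strand of the gene (GRCh38.p14), with CpG dinucleotides in capitals. COX7C lies at chr5:86617791-86617940 on the plus strand and NDUFA2 at chr5:140647631-140647780 on the minus strand.
COX7C: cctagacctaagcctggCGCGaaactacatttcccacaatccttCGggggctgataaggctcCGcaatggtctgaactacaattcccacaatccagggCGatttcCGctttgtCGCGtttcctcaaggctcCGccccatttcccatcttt
NDUFA2: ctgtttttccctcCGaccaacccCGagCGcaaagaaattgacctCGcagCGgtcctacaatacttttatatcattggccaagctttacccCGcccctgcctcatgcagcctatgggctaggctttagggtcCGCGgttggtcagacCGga
Each holds 9 CpG dinucleotides, with 53.3% G and C in COX7C and 55.3% in NDUFA2. The COX7C segment holds a repeated element, matched as ACTACANTTCCCA, that was searched for after the sequence had been seen. It is shown in capitals in 30-base windows, of which COX7C has a pair and COX7B 1.
COX7C, chr5:86617804-86617833, plus strand: ctggcgcgaaACTACATTTCCCAcaatcct
COX7C, chr5:86617856-86617885, plus strand: aatggtctgaACTACAATTCCCAcaatcca
COX7B, chrX:77899335-77899364, plus strand: aaagccggaaACTACATTTCCCAaaaggcc
Of 69 member promoters with a RefSeq sequence (250 bases before to 50 after the start), 2 held this element on either strand (2.90%). Of 15843 promoters of protein-coding genes 1.06% did. COX7C, from which the element was taken, is 1 of the 2, so its match was fixed in advance and the 2.90% does not measure enrichment. COX7B, another small complex IV subunit, rose with PBRM1 silencing and did not pass with IRF1 silencing.

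Silencing PBRM1 was accompanied by higher levels of most of these genes. In the limma fit across all 10639 genes tested, 55 of the 78 tested members were higher in PBRM1shRNA cells at an adjusted p below 0.05, 1 was lower and 22 did not pass. Of all genes tested, 24.6% were called higher and 34.8% lower. The median log2 fold of the members was 0.33 against -0.05 over all genes tested (folds are differences in log2(TPM + 1) throughout, which understates changes of low genes). Under median-ratio scaling 69 were higher and 1 lower, with 37.9% of all genes called in each direction. With the replicate number as a block, a pairing that the labels do not state, 63 were higher and 1 lower. After removal of short noncoding RNAs 56 were higher and 6 lower, against 25.1% and 50.6% of all genes. In the deposited TPM, 55 tested members lay higher without overlap between the groups and 1 lower, against 26.5% and 35.4% of all genes tested, and in rescaled TPM 52 and 7, against 25.8% and 51.1%. The spread that limma assigned to a gene in both BT-549 fits followed its level alone, so an adjusted p from each gene's own spread is given as well, called the unpooled adjusted p.

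**Figure D1:**
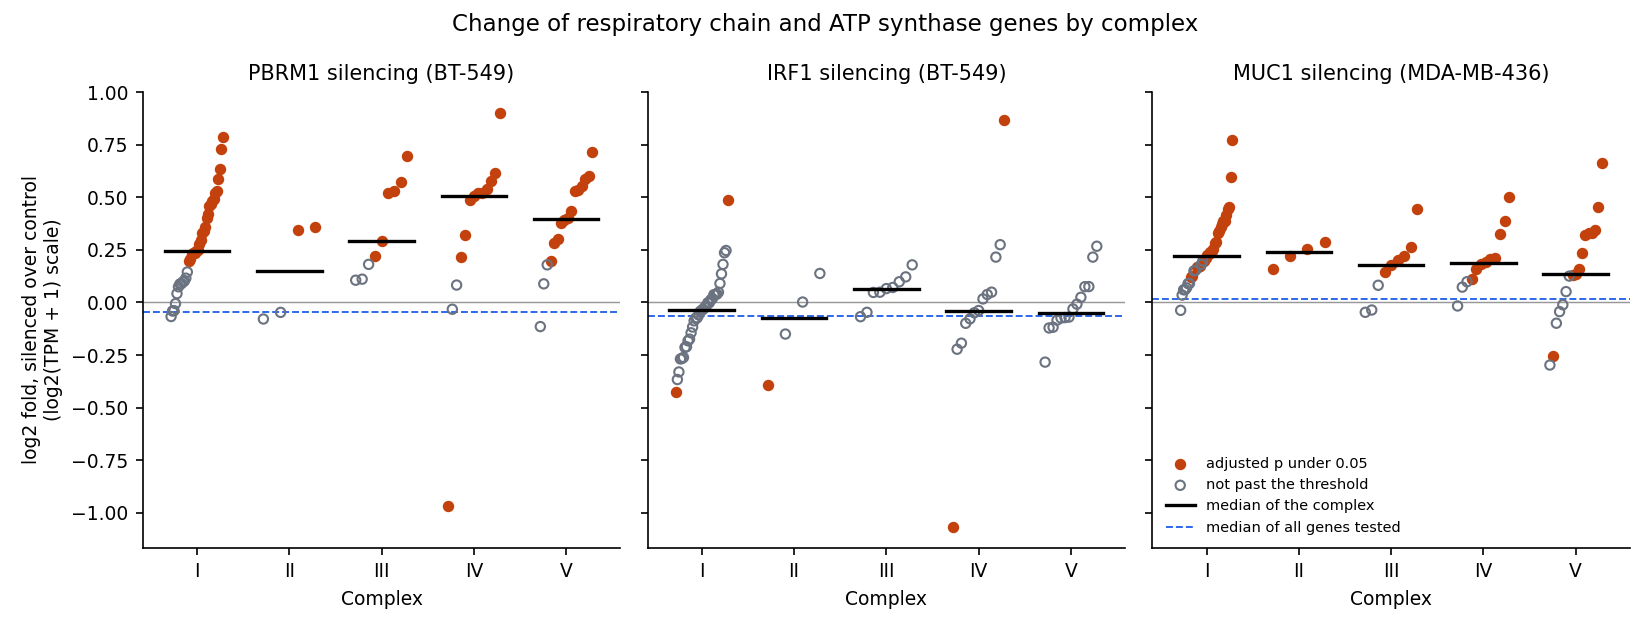
Change of each tested gene by complex in the 3 experiments, as the silenced-minus-control difference in log2(TPM + 1). Filled points passed an adjusted p of 0.05, black bars are medians of a complex and the dashed line is the median of all genes tested; with PBRM1 silencing the complex medians run from 0.15 to 0.51, with IRF1 silencing they lie between -0.07 and 0.07, and with MUC1 silencing between 0.14 and 0.24.

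In complex I, 24 of 36 tested genes rose with PBRM1 silencing, with a median log2 fold of 0.25. Accessory subunits made up 22 of these 24 out of 29 tested, with a median of 0.30. NDUFB9, an accessory subunit of the membrane arm, was at 130, 116 and 132 TPM in controls and at 218, 205 and 233 TPM in PBRM1shRNA libraries, with a log2 fold of 0.79 ± 0.09 (SE, n = 3 per group, adjusted p by limma = 3.4e-19, unpooled adjusted p = 0.0054). NDUFA2 was at 22.0, 20.5 and 21.4 TPM in controls and at 36.7, 32.9 and 38.5 TPM in silenced libraries (0.73 ± 0.09 SE, unpooled adjusted p = 0.0048). NDUFB2 was at 58.8, 43.3 and 54.1 TPM in controls and at 84.8, 73.9 and 84.0 TPM after silencing (0.63 ± 0.09 SE, unpooled adjusted p = 0.031). All 3 genes were higher in every silenced library than in any control.

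Core subunits of complex I gave smaller values. Of 7 nuclear-encoded subunits, 2 passed the test, NDUFV2 (log2 fold 0.47) and NDUFS3 (0.24), and the core median was 0.10. NDUFS1, which carries iron-sulphur clusters of the NADH-oxidising module, was at 17.98, 16.1 and 18.7 TPM in controls and at 19.6, 17.3 and 19.4 TPM in silenced libraries, a log2 fold of 0.09 that did not pass. NDUFV1, the flavin-carrying subunit, had a log2 fold of 0.04. Under median-ratio scaling all 7 core subunits were called higher, with NDUFV1 at 0.10 (adjusted p = 0.029). The difference between core and accessory subunits was not tested.

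Complex II split into pairs. SDHB, the iron-sulphur subunit, was at 31.7, 29.6 and 33.9 TPM in controls and at 41.8, 38.9 and 41.9 TPM in silenced libraries (log2 fold 0.36 ± 0.09 SE, adjusted p = 0.00012, unpooled adjusted p = 0.019), and the membrane anchor SDHC rose by 0.34 (unpooled adjusted p = 0.059). SDHA, the flavin subunit, was at 39.4, 35.3 and 41.2 TPM in controls against 40.2, 34.9 and 37.0 TPM, and SDHD, the other anchor, at 28.05, 25.9 and 26.9 TPM against 25.5, 24.5 and 26.4 TPM. Neither passed, and both fell past the threshold once short noncoding RNAs were removed. The sum of the 4 genes accordingly moved by 2.89% in rescaled TPM.

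In complex III, 6 of 9 genes rose, with a median of 0.29. The small subunit UQCR10 was at 23.5, 19.0 and 22.2 TPM in controls and at 38.1, 31.5 and 37.0 TPM in silenced libraries (log2 fold 0.69 ± 0.09 SE, unpooled adjusted p = 0.017). UQCRH rose by 0.57, and the core protein UQCRC1 by 0.22. The Rieske iron-sulphur protein UQCRFS1 (0.11) and the core protein UQCRC2 (0.11) did not pass, and both passed with the replicate block (adjusted p = 0.025 and 0.023). UQCRHL, a near-identical copy of UQCRH that also passed (0.53), shares reads with it and its level is uncertain. All 9 genes were called higher under median-ratio scaling.

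Complex IV showed the highest complex median, 0.51, with 10 of 13 tested genes higher. NDUFA4, first described in complex I and now placed in complex IV (chr7:10931943-10940153, minus strand, GRCh38), was at 29.6, 27.9 and 30.1 TPM in controls and at 55.5, 51.6 and 59.3 TPM in PBRM1shRNA libraries, with means of 29.2 ± 1.12 and 55.5 ± 3.81 TPM (SD, n = 3). Its log2 fold of 0.90 ± 0.09 (SE, adjusted p = 4.8e-24, unpooled adjusted p = 0.0025) was the largest rise of any member in this experiment. COX7C, the most abundant gene of the set in BT-549, was at 506, 450 and 508 TPM in controls and at 769, 705 and 772 TPM in silenced libraries (0.62 ± 0.08 SE, unpooled adjusted p = 0.0070). COX5A rose by 0.51, COX6A1 by 0.54 and COX8A by 0.49, whereas COX5B, at 84.5, 80.9 and 91.9 TPM in controls and 85.8, 77.7 and 88.0 TPM after silencing, gave -0.03 and did not pass. COX4I1, the regulatory subunit that binds nucleotides, rose by 0.22 (unpooled adjusted p = 0.064).

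COX7A1 was the one tested member called lower, and it passed the expression filter only through the controls, where it was higher. This heart and skeletal muscle form of subunit VIIa (chr19:36150922-36152447, minus strand, GRCh38) was at 1.05, 1.33 and 1.34 TPM in controls and at 0.171, 0.237 and 0.0312 TPM in silenced libraries, a log2 fold of -0.97 ± 0.07 (SE, unpooled adjusted p = 0.0055) on the log2(TPM + 1) scale and of -2.04 after short noncoding RNAs were removed. The authors' mean normalized count for the gene was 16.3, so the size of the fall rests on few reads. Its ubiquitous paralog COX7A2 rose from 111, 100.5 and 112 TPM to 161, 140 and 165 TPM (0.52 ± 0.09 SE, unpooled adjusted p = 0.017), and COX7A2L, a supercomplex assembly factor, had 12.6, 11.5 and 12.8 TPM against 13.2, 12.1 and 13.97 TPM and did not pass. The muscle markers ACTA1, MYH7, CKM and TNNT2 together reached 0.184 to 0.397 TPM in controls and 0.218 to 0.354 TPM in silenced libraries.

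In complex V, 13 of 16 tested genes rose, with a median of 0.40. ATP5A1, the alpha subunit of the catalytic F1 head, was at 77.3, 70.9 and 78.9 TPM in controls and at 132, 114 and 129 TPM in silenced libraries (log2 fold 0.72 ± 0.09 SE, unpooled adjusted p = 0.0062). The catalytic beta subunit ATP5B was at 169, 148 and 167 TPM in controls and at 222, 198 and 217 TPM in silenced libraries (0.39, unpooled adjusted p = 0.023). The 3 genes that encode the same c-ring subunit all passed: ATP5G1 (0.38), ATP5G2 (0.30) and ATP5G3 (0.59). Of 7 stalk and membrane subunits, 6 rose, and the coupling-factor-like gene ATP5S (-0.11) did not pass.

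Summed over each complex in rescaled TPM, complex I rose by 21.8%, complex III by 25.7%, complex IV by 33.1% and complex V by 25.0%. All 87 genes went from 19762 ± 67.2 to 24935 ± 553 (SD, n = 3), from 1.98 to 2.49% of rescaled TPM, and for the total and for all 5 complexes the silenced libraries lay above the controls without overlap. These sums are a description and carry no test.

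**Figure D2:**
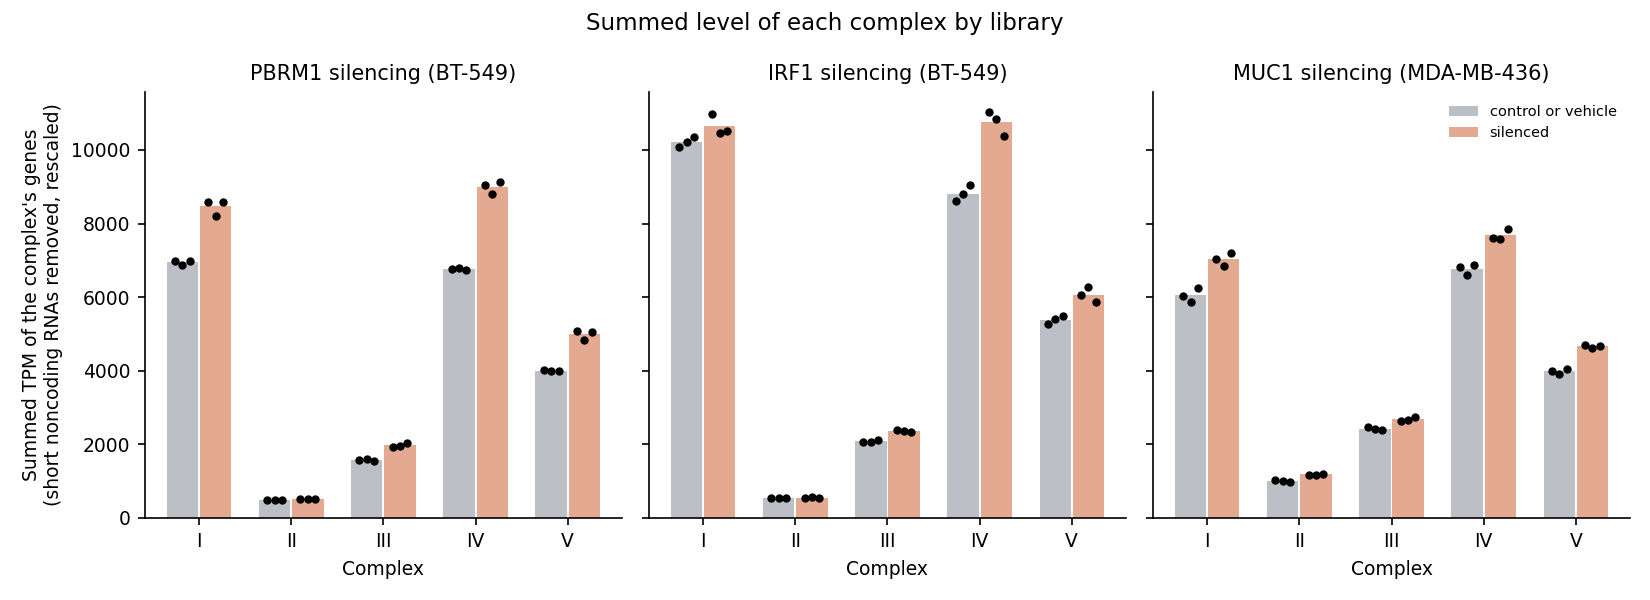
Summed rescaled TPM of each complex in each library (points) with the group mean (bars, from 0). In the PBRM1 panel complex IV goes from 6760 to 8999, while complex II stays near 500; the IRF1 panel shows complex I moving by 4.26% and complex IV by 21.9%, and the MUC1 panel shows 10.4 to 17.3% in all 5 complexes.

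Other mitochondrial gene lists came from the same fit, in which 24.6% of all genes tested were called higher and 34.8% lower. Complex I assembly factors had 1 of 15 higher and 4 lower, with NDUFAF3 at -0.44 and ACAD9 at -0.42, and complex IV assembly factors 4 of 22 higher and 5 lower. Of 18 tricarboxylic acid (TCA) cycle and pyruvate dehydrogenase genes, 7 rose, among them citrate synthase CS at 0.28, and 1 fell, the succinyl-CoA ligase subunit SUCLG2 at -0.73. Of 14 regulators of mitochondrial gene expression, 2 rose and 5 fell, with MYC at -0.57 and PPARGC1B at -0.35. Of 18 import genes, 8 rose and 1 fell. The heme-carrying complex III subunit CYC1 (0.27) and the ATP synthase component USMG5 (0.37), which the symbol rule misses, both rose. Differences between lists were not tested.

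Cytosolic ribosomal protein genes, which are also short and abundant, were higher in 67 of 78 cases and lower in 0 in the limma fit, with a median of 0.36. The tested members had a median coding length of 454.5 bases against 1431 over all genes, and 69.2% of them were under 600 bases against 11.8%. Among members the Spearman correlation of coding length with log2 fold was -0.44 over 78 genes, and over 10027 genes with a known length it was -0.14. The median log2 fold of all genes under 600 bases was 0.12, and that of members under 600 bases was 0.37. The part of transcript length in the result was not tested. Only 2 of 6 epithelial markers passed the expression filter in this experiment, the keratins KRT8 and KRT18, and both rose. KRT8 passed it only through the silenced libraries, where it was higher. KRT8 went from 0.732 to 0.875 TPM in controls to 6.12 to 6.51 TPM and KRT18 from 2.59 to 3.05 TPM to 27.7 to 33.1 TPM. All 6 together summed to 4.41 to 5.13 TPM in controls and 34.2 to 40.0 TPM in silenced libraries. Of 5 mesenchymal markers 2 rose (CDH2 by 0.45 and VIM by 0.25) and 3 fell (FN1 by 1.35, ZEB1 by 0.59 and SPARC by 0.45), with a median of -0.45, and no leukocyte or endothelial marker passed the expression filter. Their part in the result was not tested.

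Silencing IRF1 moved few of these genes beyond the spread of the deposited TPM. Of 75 tested members, 2 were higher, 3 were lower and 70 did not pass, with 5.76% of all 9135 genes called higher and 18.5% lower. The members' median log2 fold was -0.03 and that of all genes -0.06. Control 1 and silenced 2 had the lowest shares of short noncoding RNA in their groups, 84.8% and 86.3%, and were the highest library of their group for 74 and 70 of the 75 members. The groups did not overlap for 3 higher and 10 lower members, against 8.90% and 25.0% of all genes, and in rescaled TPM for 38 and 11, against 39.2% and 31.5%. Under median-ratio scaling 25 members were higher and 11 lower, against 34.1% and 34.9% of all genes, and after removal of short noncoding RNAs 35 were higher and 11 lower, against 37.8% and 30.4%. The removal moved the median of all genes from -0.06 to 0.04. The 5 calls made on deposited TPM held under both scalings.

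**Figure D3:**
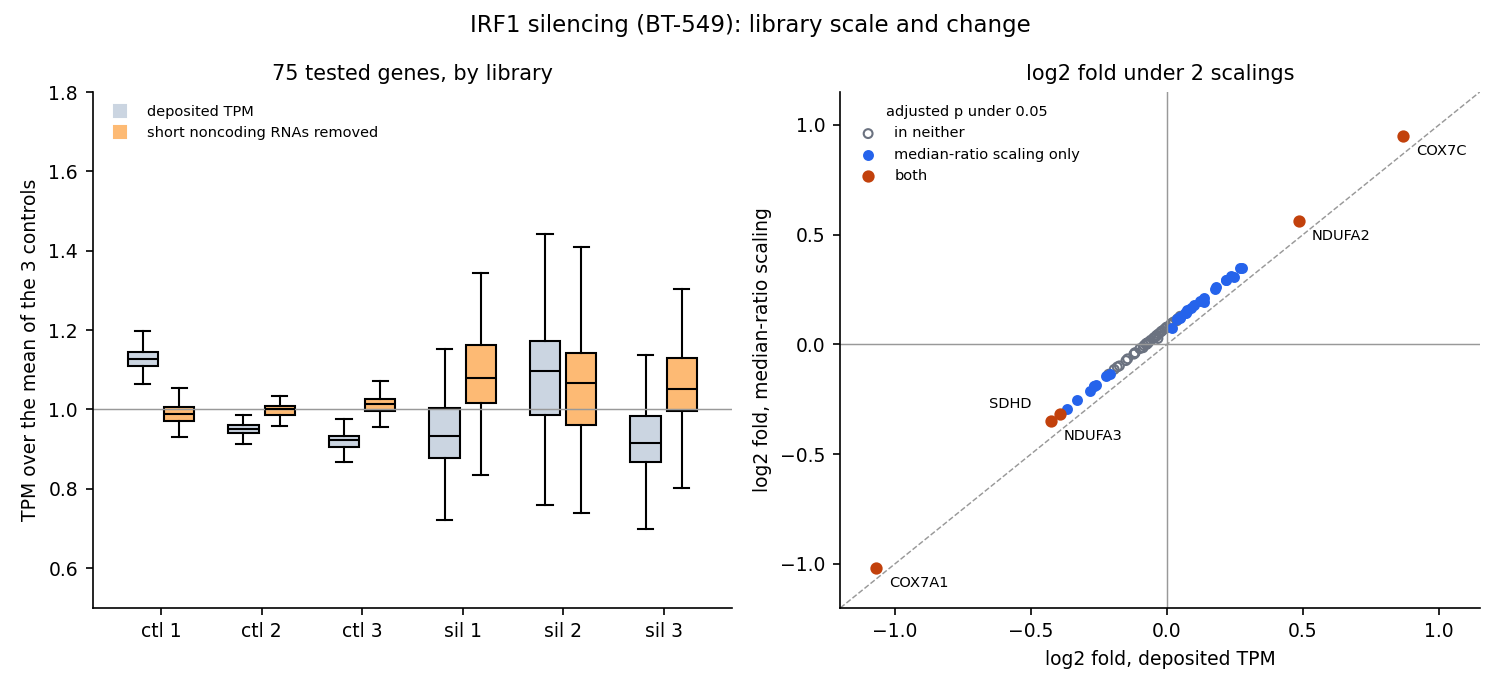
Left, boxes of each library's TPM over the mean of the 3 controls across 75 tested genes, in deposited and rescaled TPM (boxes span the quartiles with a line at the median); the deposited values of control 1 and silenced 2 sit above those of their group. Right, log2 fold on deposited TPM against log2 fold under median-ratio scaling, where COX7C, NDUFA2, COX7A1, NDUFA3 and SDHD passed under both.

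COX7C rose the most. This small structural subunit of complex IV (chr5:86617941-86620962, plus strand, GRCh38) was at 262, 215 and 218 TPM in controls and at 405, 491 and 378 TPM in IRF1shRNA libraries, a log2 fold of 0.87 ± 0.13 (SE, n = 3 per group, adjusted p = 3.0e-09, unpooled adjusted p = 0.056). In rescaled TPM its controls were at 1736 ± 51.9 and its silenced libraries at 3453 ± 178 (SD, n = 3). NDUFA2, an accessory subunit of complex I (chr5:140645285-140647630, minus strand, GRCh38), was at 22.2, 18.3 and 19.5 TPM in controls and at 27.2, 31.8 and 26.3 TPM in silenced libraries (0.49 ± 0.15 SE, adjusted p = 0.0084, unpooled adjusted p = 0.093). Every silenced library exceeded every control for both genes. The call for NDUFA2 was lost without control 2 (adjusted p = 0.14) or without silenced 2 (adjusted p = 0.052).

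COX7A1 was called lower as with PBRM1 silencing, and here too it passed the expression filter only through the controls. It was at 2.97, 3.10 and 2.91 TPM in controls and at 0.908, 0.890 and 0.913 TPM in IRF1shRNA libraries (log2 fold -1.07 ± 0.11 SE, adjusted p = 4.8e-20, unpooled adjusted p = 0.0018), with groups far apart and an authors' mean normalized count of 215. Summed muscle markers were at 0.0614 to 0.0972 TPM in controls and 0.0691 to 0.0915 TPM in silenced libraries. The accessory complex I subunit NDUFA3 was at 27.95, 24.01 and 24.6 TPM in controls and at 18.9, 19.4 and 17.9 TPM in silenced libraries (-0.43 ± 0.15 SE, adjusted p = 0.024, unpooled adjusted p = 0.058). SDHD was at 19.0, 15.5 and 14.04 TPM in controls and at 11.8, 12.6 and 11.7 TPM in silenced libraries (-0.39 ± 0.15 SE, adjusted p = 0.039, unpooled adjusted p = 0.16). The groups did not overlap for either gene. The NDUFA3 call was lost without control 2, silenced 1 or silenced 3, and the SDHD call without control 1, control 2, silenced 1 or silenced 3.

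By complex, calls under median-ratio scaling were 9 higher and 7 lower in complex I, 1 and 1 in complex II, 7 and 0 in complex III, 4 and 2 in complex IV and 4 and 1 in complex V. Under that scaling ATP5B (log2 fold 0.35), COX7A2L (0.35), NDUFA4 (0.29) and ATP5G1 (0.29) were called higher, and NDUFA8 (-0.29), NDUFB8 (-0.25) and ATP5G3 (-0.21) lower. On deposited TPM none of these 7 passed. SDHA, SDHB and SDHC had log2 folds of -0.15, 0.00 and 0.14 on deposited TPM, and of these SDHC was called higher under median-ratio scaling (0.21). Summed rescaled TPM rose by 4.26% in complex I, 0.449% in complex II, 13.8% in complex III, 21.9% in complex IV and 12.5% in complex V. The complex IV sum rose by 1934 TPM, of which COX7C alone supplied 1717.

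The related lists moved little on deposited TPM, on which 5.76% of all genes tested were called higher and 18.5% lower. Of 13 complex I assembly factors 1 fell, TMEM126B (-0.41), and complex IV assembly factors had SURF1 higher (0.40) and PET100 (-0.40) and COX20 (-0.38) lower. Cytochrome c, CYCS, fell by 0.47 on the log2 scale. SUCLG2 fell by 0.63 and IDH2 rose by 0.38 among TCA cycle genes, and the regulators YY1 (-0.41) and GABPA (-0.34) fell. Of 77 cytosolic ribosomal protein genes, 0 were higher and 1 lower. Under median-ratio scaling they were 52 and 2, against 34.1% and 34.9% of all genes. None of these named calls had an unpooled adjusted p under 0.05. The keratin KRT18, the 1 epithelial marker tested, fell by 0.64, and VIM, 1 of 5 mesenchymal markers tested, by 0.59, while the other 4 did not pass. Their part in the result was not tested.

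Silencing MUC1 in MDA-MB-436 was accompanied by higher levels across all 5 complexes. Of 78 tested members, 54 rose with DOX, 1 fell and 23 did not pass, with 27.0% of all 13229 genes called higher and 23.4% lower. The median log2 fold of the members was 0.20 and that of all genes 0.02. The counts were 49 and 2 under median-ratio scaling, against 26.1% and 25.7% of all genes, and 50 and 2 after removal of short noncoding RNAs, against 26.5% and 25.3%. The groups did not overlap for 52 higher and 2 lower members in deposited TPM, against 31.5% and 27.7% of all genes, and for 50 and 2 in rescaled TPM, against 30.6% and 29.5%.

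In complex I, 25 of 36 genes rose, with a median of 0.22. NDUFA2 was at 65.0, 69.4 and 63.6 TPM with vehicle and at 113, 116 and 110 TPM with DOX, with means of 66.0 ± 3.01 and 113 ± 3.16 TPM (SD, n = 3) and a log2 fold of 0.77 ± 0.04 (SE, adjusted p = 2.6e-06), the largest of any member here. NDUFA5 was at 19.6, 21.7 and 19.0 TPM with vehicle and at 31.4, 30.4 and 30.7 TPM with DOX (0.59 ± 0.06 SE, adjusted p = 5.5e-05), and NDUFA7 rose by 0.45. Of 7 core subunits, 4 rose, including NDUFS1 (0.12, adjusted p = 0.036). NDUFV1, at 74.1, 86.5 and 92.3 TPM with vehicle and 97.3, 91.4 and 97.3 TPM with DOX, overlapped and did not pass (0.18, adjusted p = 0.066).

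All 4 genes of complex II rose. SDHA was at 128, 122 and 124 TPM with vehicle and at 140, 138 and 141 TPM with DOX (log2 fold 0.16, adjusted p = 0.0044). SDHB rose by 0.22, SDHC by 0.25 and SDHD by 0.29, SDHD being at 169, 162 and 146 TPM with vehicle and at 186, 201 and 195 TPM with DOX. In complex III 6 of 9 rose, with UQCR10 at 0.44, UQCRC1 at 0.22 and UQCRH at 0.14, while UQCRFS1 (-0.05) did not pass.

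In complex IV, 9 of 12 genes rose, with a median of 0.19. COX5A was at 110, 120 and 109 TPM with vehicle and at 166, 144 and 170 TPM with DOX (0.50 ± 0.06 SE, adjusted p = 0.00025). COX6A1 rose by 0.39, NDUFA4 by 0.33, COX8A by 0.21 and COX7C by 0.21, with COX7C at 1182, 1173 and 1112 TPM against 1288, 1320 and 1391 TPM. COX4I1, at 336, 314 and 358 TPM with vehicle and 345, 304 and 347 TPM with DOX, did not differ beyond the spread (-0.02 ± 0.06 SE), and COX5B (0.10) did not pass.

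In complex V, 10 of 17 genes rose and 1 fell. ATP5G1 was at 177, 165 and 165 TPM with vehicle and at 289, 271 and 245 TPM with DOX (log2 fold 0.66 ± 0.06 SE, adjusted p = 2.8e-05). The other two c-ring genes did not follow it: ATP5G3 was at 0.05 and ATP5G2 at -0.10 (adjusted p = 0.059), the latter with 51.3, 51.5 and 52.1 TPM against 48.4, 47.4 and 48.7 TPM and called lower under both other scalings. ATP5L in the membrane sector rose by 0.45, ATP5A1 by 0.16 and ATP5B by 0.13. ATP5S was at 15.3, 16.0 and 14.9 TPM with vehicle and at 12.7, 13.8 and 11.8 TPM with DOX (-0.25 ± 0.07 SE, adjusted p = 0.015), a call that was lost without control 2 (adjusted p = 0.050) or silenced 3 (adjusted p = 0.053).

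The sums in rescaled TPM rose by 16.1% in complex I, 17.3% in complex II, 10.4% in complex III, 13.6% in complex IV and 16.9% in complex V. Of 17 complex I assembly factors, 9 rose and 1 fell, and of 24 for complex IV, 11 rose and 2 fell, with COX20, a chaperone of COX2, at 0.90. The ATP synthase inhibitor ATPIF1 was at 60.3, 62.6 and 57.8 TPM with vehicle and at 104, 107 and 105 TPM with DOX (0.80 ± 0.04 SE, adjusted p = 1.5e-06). Of 18 TCA cycle genes, 11 rose and 0 fell in the limma fit, and of 14 regulators 6 rose and 0 fell, among them the nuclear receptor ESRRA at 0.42 and MYC at 0.41. CYCS fell by 0.31 and CYC1 rose by 0.26. Of 78 ribosomal protein genes, 9 were higher and 16 lower. The limma fit called 27.0% of all genes higher and 23.4% lower. Coding length had a Spearman correlation with log2 fold of -0.14 over 11739 genes and of -0.09 over 78 members. The median log2 fold under 600 bases was 0.10 for all genes and 0.21 for members. The part of length was not tested here either.

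Markers of cell state moved in this experiment too. Of 5 tested epithelial markers 4 rose, EPCAM from 4.64, 5.90 and 3.70 TPM to 21.5, 19.95 and 22.5 TPM. Of 4 tested mesenchymal markers 3 fell, among them VIM by 0.82, and 1 rose, FN1 by 0.41. The leukocyte marker CD14 went from 4.78, 4.11 and 4.14 TPM to 9.02, 10.95 and 7.13 TPM. Their part in the result was not tested.

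Set side by side, the PBRM1 and MUC1 experiments, in both of which PBRM1 itself was lower, called 40 members higher in common. These were 72.7% of the 55 called with PBRM1 silencing and 74.1% of the 54 called with MUC1 silencing. Over all 10223 genes tested in both, 811 were called higher in both. They were 32.0% of the genes called higher with PBRM1 silencing and 27.4% of those with MUC1 silencing. Of all 77 members tested in both, 71.4% were called higher with PBRM1 silencing and 70.1% with MUC1 silencing, so members called in one experiment were called in the other at close to the rate of all members. The sizes of the changes were weakly related: across the 77 members tested in both, Pearson's r was 0.25 and Spearman's rho 0.18, as a description over genes that are not independent. NDUFA4, NDUFB9, NDUFA2 and ATP5A1 had the largest log2 folds among members called higher with PBRM1 silencing, and NDUFA2, ATP5G1, NDUFA5 and COX5A with MUC1 silencing, so NDUFA2 is in both sets.

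**Figure D4:**
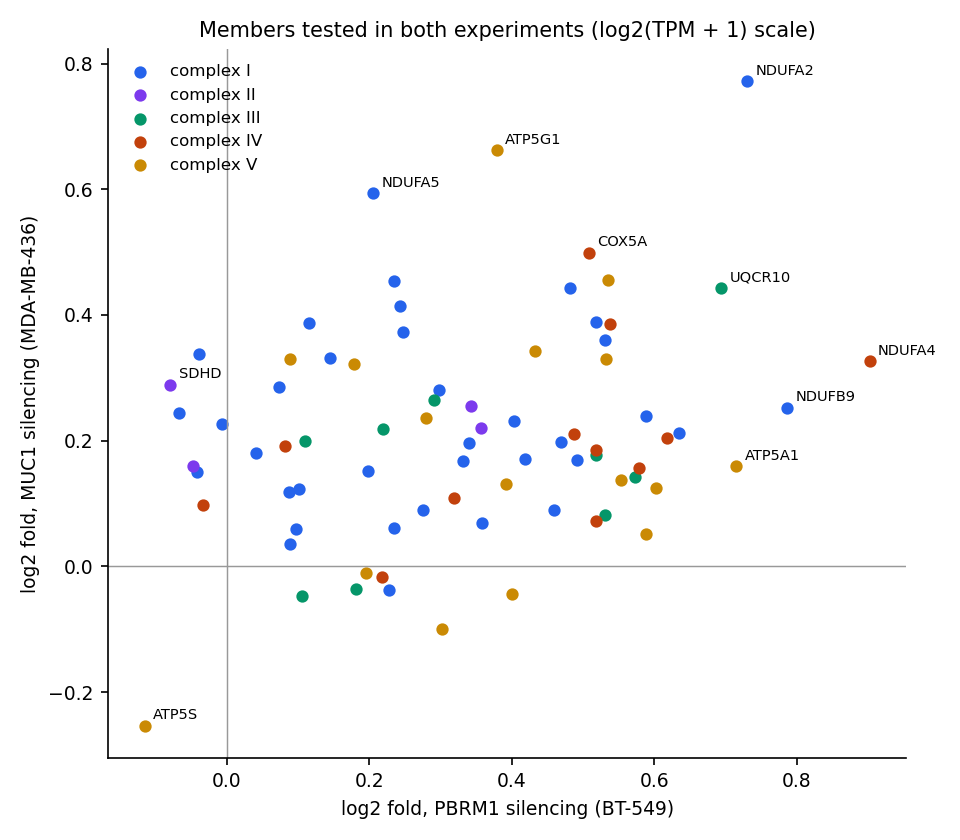
log2 fold of each of 77 members tested in both experiments, PBRM1 silencing in BT-549 on the x axis and MUC1 silencing in MDA-MB-436 on the y axis, coloured by complex. Most points lie above 0 on both axes with little relation between the sizes (Pearson's r 0.25); NDUFA2 is high on both and ATP5S below 0 on both.

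NDUFA2 and COX7C, whose promoters are shown above, were the only members called higher on deposited TPM in all 3 experiments. Under median-ratio scaling 17 members were, and after removal of short noncoding RNAs 21, COX7C and NDUFA2 in each. Median-ratio scaling called 37.9%, 34.1% and 26.1% of all genes higher with PBRM1, IRF1 and MUC1 silencing. After the removal these shares were 25.1%, 37.8% and 26.5%. The share of all genes called higher in all 3 experiments is not given, so these counts have no background. COX7A1 was lower in both BT-549 experiments, where it passed the filter through the controls alone. IRF1 itself was lower in both of these experiments. COX7A1 was listed at 0 in all 6 MDA-MB-436 libraries. Beside COX7A1, no member was called lower in more than 1 experiment on deposited TPM. SDHD was lower with IRF1 silencing (-0.39), higher with MUC1 silencing (0.29) and not called with PBRM1 silencing (-0.08).

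**Figure D5:**
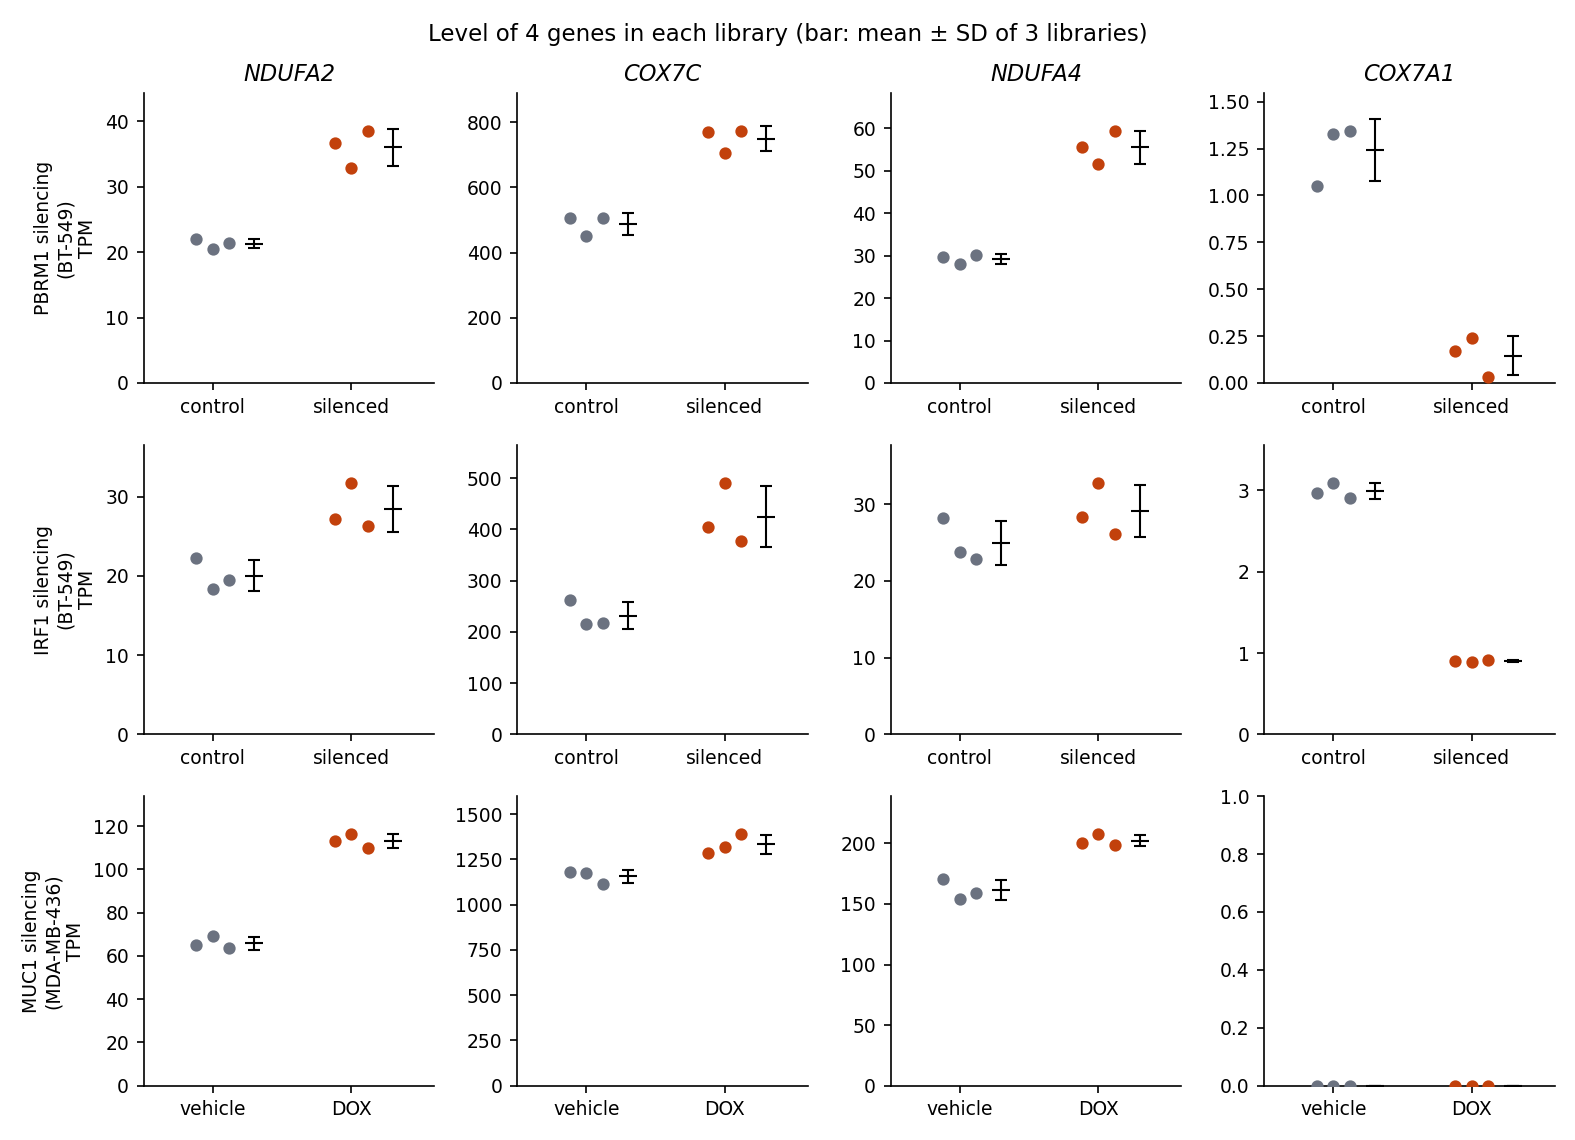
TPM of NDUFA2, COX7C, NDUFA4 and COX7A1 in each library (points) with mean ± SD of 3 libraries (bars), a row per experiment and axes from 0. NDUFA2 and COX7C are higher in every silenced library than in any control of all 3 experiments, NDUFA4 overlaps in the IRF1 experiment, and COX7A1 is lower in both BT-549 experiments and at 0 in MDA-MB-436.

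Elements named for factors that act on many mitochondrial genes were searched on both strands of the same windows. The NRF1 element GCGCATGCGC was in 4 member promoters (5.80% against 1.75% of all), and the windows are shown because the 4 genes include SDHD, which moved in opposite directions. Capitals mark the element.
NDUFA8, chr9:122159764-122159793, minus strand: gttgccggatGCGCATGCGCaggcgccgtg
NDUFB4, chr3:120596167-120596196, plus strand: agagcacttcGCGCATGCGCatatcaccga
SDHD, chr11:112086753-112086782, plus strand: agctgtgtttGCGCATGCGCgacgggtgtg
ATP5C1, chr10:7788145-7788174, plus strand: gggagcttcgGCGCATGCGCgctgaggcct
These 4 genes had a median log2 fold of 0.23 with PBRM1 silencing, -0.29 with IRF1 silencing and 0.26 with MUC1 silencing. The medians of all tested members were 0.33, -0.03 and 0.20. With IRF1 silencing the 4 genes ran from -0.39 to -0.12, and 1 of them, SDHD, was called lower. With PBRM1 silencing 2 were called higher and with MUC1 silencing 3. The ETS element CCGGAAG was in 19 member promoters (27.5% against 14.2%), that of SDHD among them, with medians of 0.28, -0.03 and 0.17. The YY1 element AAGATGGCG was in 8 (11.6% against 2.74%), with medians of 0.21, -0.02 and 0.22. The interferon-stimulated response element GAAANNGAAA matched no member promoter and 3.17% of all promoters. A match is a run of letters in this window and does not show that a factor binds there.

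Most tissue-restricted forms other than COX7A1, which passed the filter in BT-549, were at or near 0 beside their ubiquitous paralogs. COX4I2, COX8C, COX7B2 and the read-through genes NDUFC2-KCTD14 and ATP5J2-PTCD1 were listed at 0 in all 12 BT-549 libraries, and COX6A2 reached at most 0.145 TPM there. In MDA-MB-436, COX4I2 was above 0 in 1 library, at 0.414 TPM. NDUFA4L2, a paralog of NDUFA4 known for induction by hypoxia, did not pass the filter. With PBRM1 silencing it was at 0.702, 0.514 and 0.481 TPM against 1.30, 1.003 and 0.765 TPM in controls, below every control while NDUFA4 was above every control. COX6B2, the testis form, was under 0.6 TPM in BT-549 while COX6B1 was at 121 to 132 TPM in PBRM1 controls and rose by 0.32 with PBRM1 silencing. The summed testis markers DAZL, PRM1, PRM2 and TNP1 were at 0 in every library. ATP5E, the epsilon subunit of F1, was at 0.708 to 1.64 TPM in PBRM1 controls and 23.3 to 32.5 TPM in vehicle-treated MDA-MB-436 cells, tables that were scaled separately. Of the 87 genes, 44 have at least 1 named pseudogene in GENCODE 29, and reads shared with such copies could not be told apart.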

How the data were processed

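Poly(A) RNA from 18 cultures was sequenced as stranded libraries. The submitters' processing notes name STAR, DESeq2 and the build GRCh38 without versions, and by the study's methods DESeq2 was used to normalize and compare feature counts. The deposited tables hold TPM per gene, made by the authors, and each library sums to 1000000. The authors' comparison tables hold fold changes and p-values, which were not used, and their mean normalized count per gene, a deposited signal over the 6 libraries of an experiment, which was used only to show depth. These counts total 27111321, 63114292 and 11858741 in the PBRM1, IRF1 and MUC1 experiments.

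Each experiment was fitted alone with limma 3.58.1 in R 4.3.3, with a trended prior, on log2(TPM + 1) for genes at 1 TPM or more in at least 3 of 6 libraries. Tests were two-sided, and p-values were adjusted by Benjamini-Hochberg over all genes tested, with a threshold of 0.05. Log2 folds are silenced minus control, and fits were tested on simulated data. The alternatives were 2 scalings, other pseudocounts and filters, fits without trend or moderation (the unpooled adjusted p), a replicate block and each library left out. The PBRM1 controls were numbered by the last digit of their deposited names, to which the labels give no meaning. Same-numbered PBRM1 libraries deviated together in deposited TPM (correlations 0.455, 0.309 and 0.290). Short noncoding RNA shares ran in the same order by number: 77.0, 79.2 and 76.4% in controls and 75.8, 77.2 and 75.5% after silencing. This pairing was read from the data themselves, so the block is only an alternative beside the unblocked fit, which gave the reported values. Current symbols, coordinates and promoters are from RefSeq (GRCh38.p14).

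Genes were named by rule: the largest changes in each direction, the most abundant gene of each complex, paralog pairs, SDH genes and core subunits, with 1 item not reported here. The members and lists were chosen with earlier results of these data known.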

Additional observations from a re-analysis of the deposited data

How the results depend on the processing

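The counts of members higher with PBRM1 silencing (43 to 69) and with MUC1 silencing (43 to 55) stayed within 1.5 times the reported count under every alternative run. The other counts moved. Members lower with PBRM1 silencing were 3 without the filter, 0 when a mean of at least 5 TPM was required and 6 after removal of short noncoding RNAs. With a library left out they were 1 to 2. Members higher with IRF1 silencing were 35 after that removal, 25 under median-ratio scaling, 0 without moderation and 1 to 7 with a library left out, 7 of them without control 1. Members lower with IRF1 silencing were 11 under both scalings, 5 without a trend, 1 without moderation and 1 to 5 with a library left out. Members lower with MUC1 silencing were 2 without the filter, under both scalings and without moderation, and 0 to 1 with a library left out. With the replicate block, 63 members were higher and 1 lower with PBRM1 silencing, 1 higher and 1 lower with IRF1 silencing, and 51 higher and 1 lower with MUC1 silencing. Same-numbered libraries did not deviate together in the IRF1 (correlations -0.209, 0.085 and 0.228) and MUC1 (0.053, -0.036 and 0.006) experiments. With IRF1 silencing ATP5A1 turned to 0.11 and NDUFS5 to 0.12 after removal of short noncoding RNAs. Except where the setting itself removes genes or samples, the cause was not tested. Without counts, error from read depth cannot be given for single genes.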

Other observations

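SDHD and TIMM8B, a small chaperone of the mitochondrial import pathway, lie head to head on chromosome 11, with transcript models that overlap by 26 bases in GENCODE 29 (chr11:112084800-112086798 for TIMM8B on the minus strand, chr11:112086773-112120013 for SDHD on the plus strand, GRCh38). The pair was singled out after its values had been seen. With IRF1 silencing TIMM8B was at 15.8, 13.2 and 12.1 TPM in controls and at 6.90, 8.81 and 6.57 TPM in silenced libraries (log2 fold -0.80 ± 0.15 SE, limma adjusted p = 1.2e-06, 0.070 without moderation), and SDHD fell by 0.39. With MUC1 silencing TIMM8B was at 24.05, 24.5 and 27.0 TPM with vehicle and at 40.0, 38.2 and 33.9 TPM with DOX (0.55 ± 0.07 SE, adjusted p = 0.00026), and SDHD rose by 0.29. Both genes thus moved the same way in these 2 experiments. With PBRM1 silencing neither was called (TIMM8B 0.10, SDHD -0.08), although TIMM8B passed with the replicate block (limma adjusted p = 0.039). The libraries are stranded, but the strand setting of the counting is not given in the sources used here.

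SUCLG2, the GTP-forming succinyl-CoA ligase subunit of the TCA cycle, was likewise singled out after its values had been seen. It fell with PBRM1 silencing, from 12.8, 11.1 and 13.0 TPM to 7.36, 6.63 and 7.04 TPM, and with IRF1 silencing, from 5.47, 4.54 and 4.13 TPM to 2.41, 3.02 and 2.63 TPM. With MUC1 silencing it rose from 32.4, 33.7 and 32.8 TPM to 58.7, 57.7 and 63.8 TPM (0.85 ± 0.05 SE, limma adjusted p = 2.9e-06). The groups did not overlap in any of the 3 experiments, and the difference between cell lines cannot be told apart from that between the silenced genes.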
